A study of Oryza sativa Japonica Group with 28 samples.

Results

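Pectinesterases, polygalacturonases and xyloglucan transferases, enzymes that rebuild the pectin and the xyloglucan of the plant cell wall, were followed through the tissues of the developing rice grain. The members were all genes of the deposited expression table whose molecular-function annotation named pectinesterase activity (87 genes), polygalacturonase activity (41 genes) or xyloglucan:xyloglucosyl transferase activity (25 genes), which gave 153 of the 45990 genes of the table. The rule used no measured value, although it was set with earlier results of these data known, and no gene carried more than 1 of the terms. Of the pectinesterase-term genes, 23 carried the cell wall modification term without an enzyme inhibitor term, 19 carried both, and 45 carried the inhibitor term without the wall modification term. Members are named by their rice locus identifiers, since the table gave no symbols for them.

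Pectin is laid down in a highly methylesterified form and is opened up in the wall by pectinesterases (pectin methylesterases), which remove methyl groups. Demethylesterified pectin can be stiffened by calcium or cut by polygalacturonases, which hydrolyse the galacturonan backbone. Many plant pectin methylesterases are made with a pro-region that resembles the free pectin methylesterase inhibitor proteins, and the annotation did not say which of the inhibitor-term genes encode an enzyme and which a free inhibitor. The median gene length was 732 bases with the inhibitor term alone, 1923 with both terms and 1343 with the wall modification term alone. Which of these genes encode an enzyme was not tested. Counts and shares of pectinesterases below are of all genes with the pectinesterase term, which may include free inhibitors. Xyloglucan endotransglucosylase/hydrolases (XTH) cut xyloglucan chains, which tether cellulose microfibrils, and rejoin or hydrolyse them. Grass walls hold less pectin and xyloglucan than those of most other flowering plants, and these families are best known from expanding, separating and softening tissues.

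The grains came from Oryza sativa cv. Nipponbare plants kept in hydroponic culture, without mutants or treatments, and the tissues were cut out of frozen sections by laser capture on days 4, 8 and 16 after flowering (DAF, days after flowering). The 28 libraries fell into 13 groups. The ovular vascular trace (OVT), the vascular strand that feeds the grain, had 3, 2 and 1 libraries at 4, 8 and 16 DAF. The nucellar epidermis (NE), the maternal layer between the vascular trace and the endosperm, had 3 at each day. The cross cells (CC), a green layer of the pericarp, had 2, 1 and 2, and the starchy endosperm (EN) had 1, 2 and 2. The aleurone layer (AL), the outermost endosperm layer, had 3 libraries at 16 DAF. Each preparation pooled 3 grains, picogram amounts of RNA were amplified by PCR before sequencing, and libraries are named here by the MM number of their titles (MM05, for example), taken as a preparation number although the labels do not say what it marks. The labels do not say which libraries share a plant or a day, so that p-values measure the spread between these libraries, and a lower value of a gene in dissected tissue cannot be told apart from fewer cells expressing it.

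The deposited values are read counts per gene scaled by 1 factor per library, and the smallest step of each library put its depth between 815253 and 97251829 estimated reads (median 6868634). In the OVT library of 16 DAF 3 reads amounted to a value of 33.4, more than in any other library, so levels below that were not comparable across all groups. Several markers stood where the labels put them: Waxy, the granule-bound starch synthase of the endosperm, was highest in EN at 16 DAF (mean 32055), OsMADS29, a nucellar transcription factor, in NE at 4 DAF (1700), the invertase OsGIF1 in OVT at 4 DAF (694), an oleosin in AL (5500), and photosynthesis genes in CC at 8 DAF (0.727% of the signal). In the only EN library of 4 DAF, however, Waxy was lowest of that day, at 1017, against means of 2686 in NE, 2697 in CC and 1044 in OVT. Genes of the nutrient reservoir term held 1.48% of the signal in that library, against 1.05% to 1.06% in the other tissues of 4 DAF. The paper describes both the nucellar transcription factor and the invertase as preferentially expressed in OVT on the earlier days. Here OsMADS29 was lower in OVT than in NE, at 72.2 against 1700 at 4 DAF and 4.91 against 1322 at 8 DAF. In CC it averaged 604, 637 and 589 at 4, 8 and 16 DAF, and at 16 DAF it did not set NE (509) above CC. OsGIF1 averaged 694 in OVT and 334 in NE at 4 DAF, but 87.6 in OVT and 314 in the single CC library at 8 DAF. The 6 lipid storage body genes together held 0.19% of the signal in AL, against 0.218% in NE of 8 DAF. OsGIF1 was at 0 in the OVT library of 16 DAF, which the study's library list marks as excluded, and OsVP1, a regulator linked to the aleurone, averaged 166 in AL, against 396 in NE at 8 DAF. The NE and AL libraries of preparation MM17 at 16 DAF correlated at 0.99, above every pair of replicates (at most 0.95). The CC library MM05, named for 4 DAF in its title, carries an 8 DAF tag in another label and was kept at 4 DAF.

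Many of these genes were at or near 0 in the dissected tissues. A total of 39 of the 153 members (24 pectinesterase, 11 polygalacturonase and 4 XTH genes) were at 0 in every library, beside 11176 of all 45990 genes. A further 33 members did not reach a value above 10 with at least 10 estimated reads in any library. The remaining 81 members (40 pectinesterase, 25 polygalacturonase and 16 XTH genes, 52.9% against 59.9% of all genes) were tested. None of the 153 was above 0 in all 28 libraries, as 8.18% of all genes were. In at least 20 libraries 21 members were above 0, of which 12 were polygalacturonases, beside 16327 of all 45990 genes. With limma on log2(value + 10) and Benjamini-Hochberg adjustment over 27527 genes, 44 of the 81 tested members differed among the 13 groups at an adjusted p under 0.05, against 48.1% of all genes tested. By class these were 21 pectinesterases, 16 polygalacturonases and 7 XTHs. A test with weights for depth (voom), chosen after seeing the data, called 70 members. The share of 48.1% is from limma, and the voom counts here and below are not set against all genes.

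The class totals were small and were not tested, and they varied between libraries of a group as well as between tissues and days. Pectinesterase-term genes held 0.119% of the signal in the EN library of 4 DAF and a mean of 0.0718% in NE of 4 DAF (0.0162% to 0.12% over 3 libraries), and polygalacturonases held 0.0585% in NE (0.0474% to 0.069%) and 0.0498% in CC (0.0371% to 0.0625%) at that day. XTH genes were highest in the CC library of 8 DAF, at 0.0372%. The shares of all classes were low in EN at 8 and 16 DAF, where pectinesterases held 0.0013% and 0.0015%, polygalacturonases 0.00313% and 0.000435%, and XTHs 0.000888% and 0.00193%. The tests used the deposited values, not shares. Summed per kb of gene, those values were 428, 102 and 785 for these classes in EN of 16 DAF. The means of NE, CC and AL on that day were 208 to 431, 301 to 707 and 221 to 380. In EN of 8 DAF the sums were 246, 382 and 168, below those of NE, OVT and CC. Storage-protein genes of the nutrient reservoir list took 55.1% and 51.1% of the signal in those groups, and their part in the low shares was not tested. A mean value above 33.4 was reached by 29 members in NE and 32 in CC at 4 DAF, but by 6 in EN at 8 DAF and 8 in AL at 16 DAF. These counts were not set beside those of all genes.

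**Figure D1:**
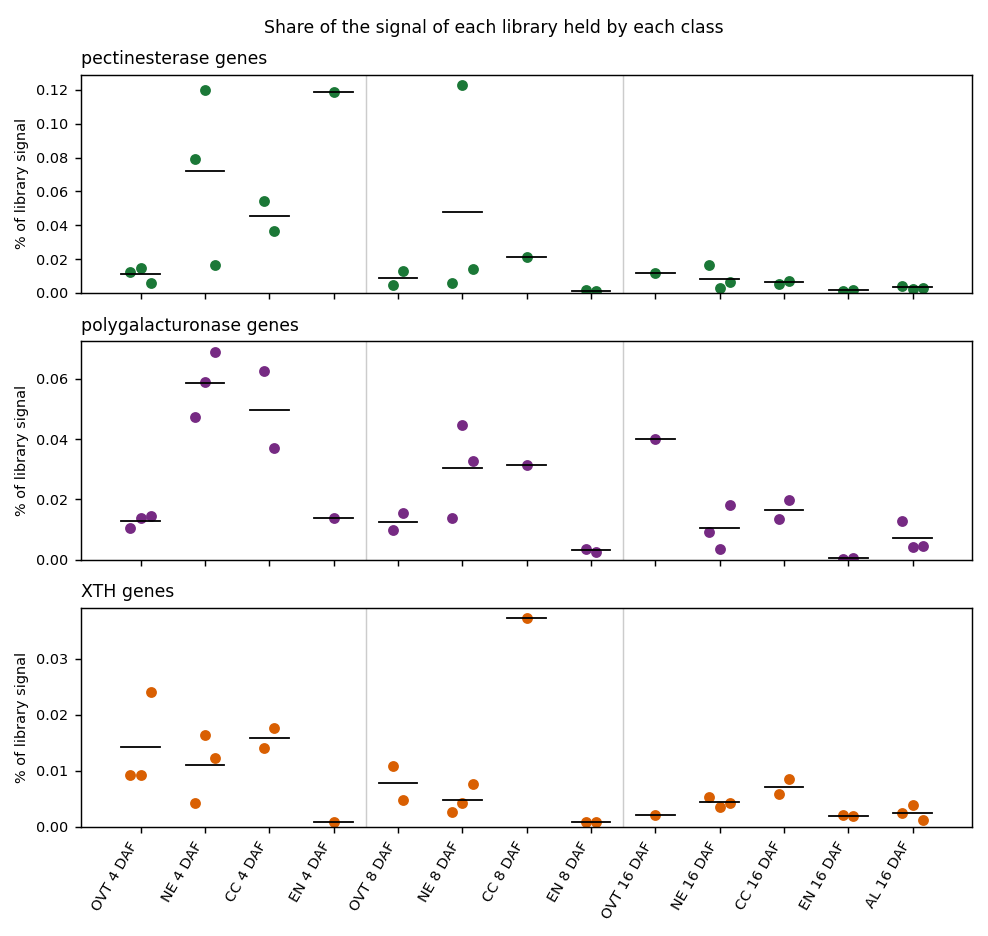
Share of each library's signal (%, linear axes from 0) held by the pectinesterase, polygalacturonase and XTH genes, by tissue and day after flowering, with points for libraries and bars for group means. Polygalacturonases held 0.0474% to 0.069% in the 3 NE libraries of 4 DAF, and the pectinesterase share of NE at 8 DAF ranged from 0.00587% to 0.123%.

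Single genes carried much of these totals. Per kb of gene, Os03g0639400, an inhibitor-term pectinesterase gene, made up 70.3% of the pectinesterase sum in EN and 45% in NE at 4 DAF. Os02g0256100 made up 97.6% of the polygalacturonase sum in the OVT library of 16 DAF. Os08g0237000 made up 82.1% of the XTH sum in OVT at 4 DAF and 81.7% in EN at 16 DAF. Averaged over the 13 group means, the highest levels per kb were 1021 for Os03g0639400 among pectinesterases, 567 for Os02g0256100 among polygalacturonases and 233 for Os08g0237000 among XTHs. By their highest group mean, 33 of the 81 tested members peaked at 4 DAF (40.7%, against 34.1% of all genes tested), 23 at 8 DAF (28.4% against 29.6%) and 25 at 16 DAF (30.9% against 36.3%). Members were highest in OVT or CC of 4 DAF, or in CC of 8 or 16 DAF, in 10 cases each (12.3%). The shares of all genes in these groups were 11.2%, 7.66%, 12.4% and 7.41%. NE of 4 DAF was highest for 9 members (11.1% against 6.44%) and AL for 1 (1.23% against 3.48%).

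**Figure D2:**
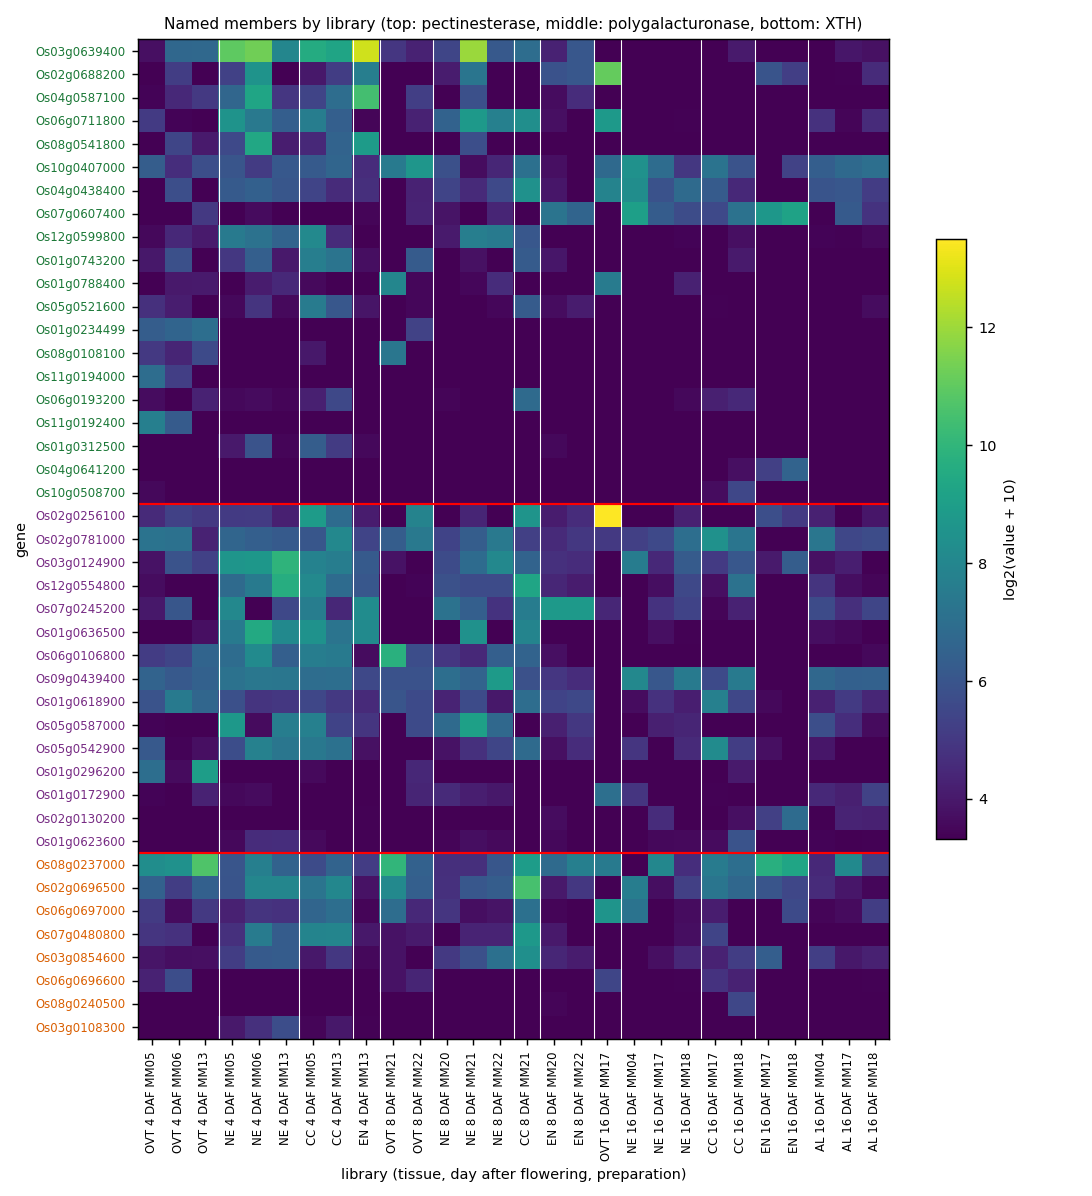
Values of the 43 members chosen by the naming rule (rows, by class) in the 28 libraries (columns, by day and tissue), as log2(value + 10) from dark (0) to yellow. Os03g0639400 is brightest in EN at 4 DAF (6938) and Os02g0256100 in the OVT library of 16 DAF (11500), while AL at 16 DAF is dark for most members.

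In each comparison a tissue was set against the average of the remaining tissues of that day, or a late group against earlier ones, and calls were read at an adjusted p under 0.05. At 4 DAF, 7 members were higher in OVT than in the mean of NE, CC and EN (8.64% of those tested, against 6.07% of all genes) and 12 were lower (14.8% against 5.61%). The higher members were 4 pectinesterases, 1 polygalacturonase and 2 XTHs, and the lower ones 7 pectinesterases and 5 polygalacturonases. Of the 4 higher pectinesterase-term genes, 3 carried the wall modification term alone and 1 the inhibitor term alone. Of the 7 lower ones, 5 carried the inhibitor term alone, 1 the wall modification term alone and 1 both. The median log2 fold change of the tested polygalacturonases was -0.85, beside -0.20 over all genes tested. With upper-quartile scaling the share of higher genes among all calls moved to 31.6% (52% as deposited) and the median of all genes to -0.47. In CC at 4 DAF 7 members were higher than in the mean of NE, OVT and EN (8.64%, against 1.78% of all genes, with 0.338% of all genes lower), of which 5 were pectinesterases. Without the CC library MM05 2 members were called, and voom called 0. Both CC libraries of 4 DAF carry a title prefix that the EN library and those of preparation MM13 in OVT and NE do not, and with the prefix in the model 1 member was called. In NE at 4 DAF 1 XTH was higher than in the mean of OVT, CC and EN (1.23%, against 0.381% of all genes, with 0.454% of all genes lower). Leaving out single libraries gave 0 to 4 calls there, and voom gave 0.

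At 8 DAF, 5 members were higher in OVT than in the mean of NE, CC and EN (6.17%, against 5.76% of all genes) and 5 were lower (6.17% against 4.08%). In NE 2 members were higher than in the mean of OVT, CC and EN (2.47% against 1.49%) and 1 was lower (1.23% against 1.58%). In EN 2 members were higher than in the mean of NE, OVT and CC (2.47% against 5.42%) and 6 were lower (7.41% against 7.44%). The only CC library of 8 DAF entered each of these comparisons. With the preparation number as a replicate block, limma called 4 members in OVT, 3 in NE and 0 in EN. The EN calls rested on both of its libraries, since without either of them 0 members were called by limma, with 19 members at an unadjusted p under 0.05 and 4 called by voom on all libraries. The OVT calls numbered 3 without the EN library MM20, and the NE calls 0 to 5 over single libraries left out. With upper-quartile scaling the share of higher genes among all calls was 80% in NE (48.5% as deposited) and 68.8% in EN (42.2% as deposited).

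At 16 DAF, 5 members were higher in CC than in the mean of AL, NE and EN (6.17%, against 3.97% of all genes, with 1.21% of all genes lower), and 3 of them were polygalacturonases. In EN 4 members were higher than in the mean of AL, NE and CC (4.94% against 5.56%) and 3 were lower (3.7% against 8.55%). In AL 1 pectinesterase was lower than in the mean of NE, CC and EN (1.23% against 0.258%, with 0.836% of all genes higher). In NE limma called 0 members against the mean of AL, CC and EN, as it did nearly all genes (0% higher and 0.00363% lower), with 8 members at an unadjusted p under 0.05 and 6 called by voom. Voom called 12 members in CC, 20 in EN and 8 in AL. With the replicate block, limma called 1 member in CC, 6 in EN, 0 in AL and 0 in NE. Leaving out either EN library left 3 calls in EN, and leaving out the CC library MM17 gave 13. With upper-quartile scaling the share of higher genes among all calls was 16.7% in EN (39.4% as deposited) and 93.8% in AL (76.4% as deposited).

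Between days, the members called were mostly lower at 16 DAF. In NE of 16 DAF 8 members were lower than in the mean of NE at 4 and 8 DAF (9.88%, against 2.03% of all genes) and 1 was higher (1.23% against 1.86%). In CC of 16 DAF 9 members were lower than in CC of 4 DAF (11.1% against 2%) and 1 was higher (1.23% against 0.727%). The 4 pectinesterase-term genes lower in NE all carried the inhibitor term alone, and the member higher in NE carried the wall modification term alone. Of the 5 pectinesterase-term genes lower in CC, 2 carried the wall modification term alone, 1 both terms and 2 the inhibitor term alone. Over the tested polygalacturonases the log2 fold changes had a median of -1.11 in CC, beside -0.20 over all genes, and of -0.61 in NE, beside -0.09. Both CC libraries of 4 DAF carry the title prefix that those of 16 DAF lack, so the prefix and the day cannot be told apart in CC, and with the prefix as a covariate 0 members were called there, against 26 at an unadjusted p under 0.05 and 8 by voom without it. The CC count was 1 without the 4 DAF library MM05 and 3 without the 16 DAF library MM18, and the NE count was 3 without the 16 DAF library MM04 and 5 without both MM17 libraries of NE and AL. In EN of 16 DAF 2 members were higher than in EN of 8 DAF (2.47% against 0.541%) and 1 was lower (1.23% against 0.945%). There the share of higher genes among all calls was 7.06% with upper-quartile scaling and 36.4% as deposited. In OVT of 8 DAF 1 member was lower than in OVT of 4 DAF (1.23% against 0.781%, with 0.443% of all genes higher).

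**Figure D3:**
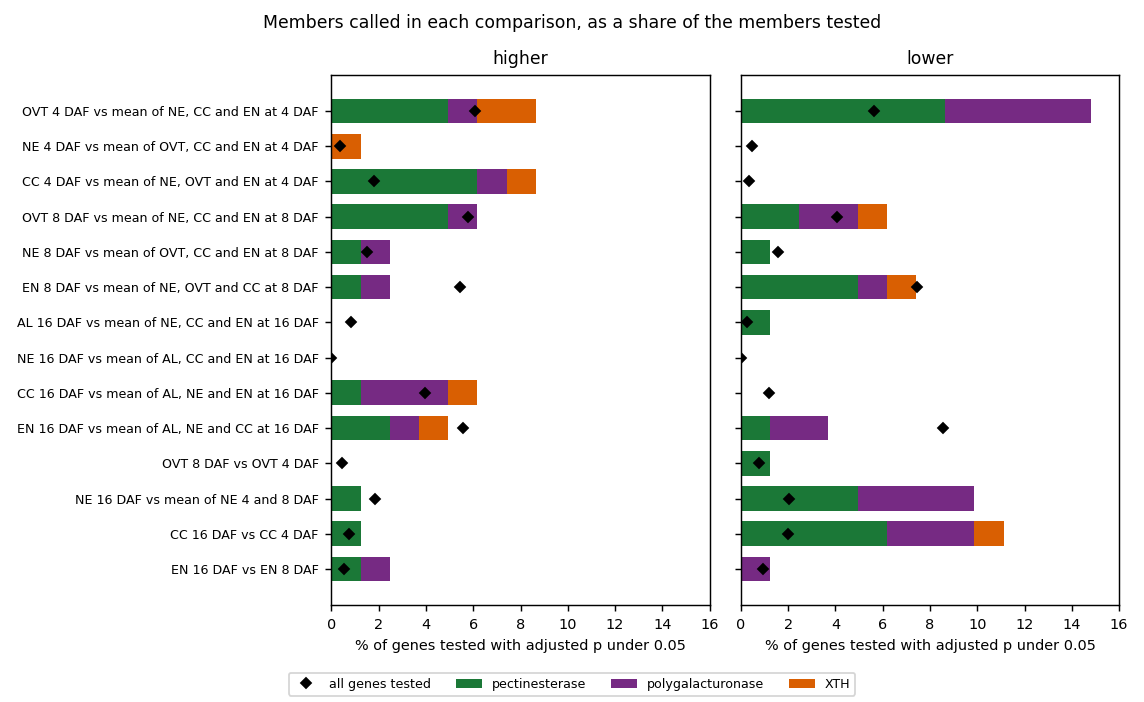
Share of the 81 tested members called higher (left) and lower (right) in each of 14 comparisons (bars, stacked by class, in % of members tested), with the share over all genes tested as a diamond. The widest gaps lie among lower members, at 14.8% against 5.61% for OVT at 4 DAF, 9.88% against 2.03% for NE at 16 DAF and 11.1% against 2% for CC at 16 DAF.

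Among the pectinesterases with the wall modification term, the enzymes that demethylesterify wall pectin, Os01g0234499 was called in young OVT. Its values in OVT at 4 DAF were 69.9, 87 and 119, and it was at 0 in all NE, CC and EN libraries of that day. It was therefore at least 29.7-fold higher in OVT, counted against a floor of 3 reads per library, and its fitted log2 fold change of 3.32 (SE 0.338, limma adjusted p = 1.91e-07), which depends on the added 10, kept its call without any single library. In OVT of 8 DAF it read 0 and 29.7, a log2 fold change of -2.33 against OVT of 4 DAF (SE 0.421, adjusted p = 0.00389), and that call was lost without the 8 DAF library MM21 (adjusted p = 0.149). Voom lost that call as well (adjusted p = 0.428). Beyond these values and OVT of 4 DAF, the gene was at 0 in every library.

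A pair of wall-term pectinesterase genes on chromosome 11, Os11g0192400 and Os11g0194000, was called in OVT of 4 DAF. Os11g0192400 read 198, 65.5 and 0 in OVT at 4 DAF (log2 fold change 2.43, SE 0.515, adjusted p = 0.00245). Os11g0194000 read 115, 27.1 and 0 (log2 fold change 1.85, SE 0.43, adjusted p = 0.00559). Both were at 0 in every other library, including the OVT library MM13, so that the groups overlapped at 0 although both calls held without any single library. For each gene the only value low enough to check (under 100 reads) was not a whole number of reads, so how the reads divide between these genes is uncertain.

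In young cross cells, Os05g0521600 was the clearest wall-term gene. It read 176 and 57 in CC at 4 DAF, against 0 to 16.4 in OVT, 1.54 to 19 in NE and 4.72 in EN. The CC values lay above all others of that day (log2 fold change 2.82, SE 0.466, adjusted p = 7.21e-04), and the call held without any single library and with the title prefix in the model, but not with an added value of 1 (adjusted p = 0.0825) or with voom (0.118). In CC of 16 DAF it read 0.551 and 0, a log2 fold change of -3.44 against CC of 4 DAF (SE 0.564, adjusted p = 0.00139). That change between days cannot be told apart from the title prefix, and its call was lost with the prefix in the model.

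Os01g0743200, another wall-term gene, read 192 and 142 in CC at 4 DAF, against at most 73.8 elsewhere at that day. It passed the test (log2 fold change 3.05, SE 0.703, adjusted p = 0.0164), but not without the CC library MM05 (0.202) or MM13 (0.0745). In CC of 16 DAF it fell to 0 and 6.42 (log2 fold change -3.77, SE 0.849, adjusted p = 0.017, with 0.104 and 0.0915 without the libraries MM05 of 4 DAF and MM17 of 16 DAF). Os01g0312500, which carries both terms, read 71 and 23.8 in CC and 6.14, 50 and 1.06 in NE at 4 DAF, so the libraries overlapped. Its CC call (log2 fold change 1.94, SE 0.422, adjusted p = 0.0102) was lost without CC MM05 (0.413).

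Os10g0407000, a wall-term gene detected in 26 of the 28 libraries, was highest in OVT at 8 DAF. It read 172 and 392 there, against 2.5 to 45.9 in NE, 124 in CC and 3.48 and 0 in EN. OVT lay above the other libraries (log2 fold change 3.01, SE 0.873, adjusted p = 0.0293), but the call was lost without OVT MM21 (0.0749), OVT MM22 (0.162) or EN MM22 (0.0584). The same gene was lower in EN of 8 DAF than in the mean of the other tissues (log2 fold change -3.05, SE 0.873, adjusted p = 0.022), which was lost without either EN library (0.14 and 0.226). At 16 DAF it was among the few members present in AL, at 71.1, 99.8 and 122, beside 21.2 to 343 in NE.

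Os07g0607400, a wall-term gene, made up 65.2% of the pectinesterase sum per kb in EN at 16 DAF. At 8 DAF it read 141 and 86.6 in EN, against 0 to 11 in NE, OVT and CC (log2 fold change 3.25, SE 0.858, adjusted p = 0.014). At 16 DAF it read 404 and 564 in EN, and the difference of EN between these days did not pass the test. Both EN calls needed both EN libraries: without either, the adjusted p was 0.179 or 0.106 at 8 DAF and 0.0915 or 0.145 at 16 DAF. The EN values of 16 DAF overlapped those of NE (521, 67.5 and 40.8) and gave a log2 fold change of 2.89 (SE 0.812, adjusted p = 0.0189) against AL, NE and CC. It was also the only member higher in NE of 16 DAF than in NE of 4 and 8 DAF, where it read at most 11 (log2 fold change 3.36, SE 0.724, adjusted p = 0.01), a call lost without NE MM04 (0.155).

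Os04g0641200, which carries both terms, was detected in 3 libraries. It read 27.7 and 84.4 in EN and 3.21 in a CC library of 16 DAF, and 0 in all others. EN of 16 DAF stood above AL, NE and CC (log2 fold change 2.51, SE 0.259, adjusted p = 7.31e-07) and at least 4.62-fold above EN of 8 DAF (fitted log2 fold change 2.58, SE 0.326, adjusted p = 7.63e-05), and both calls held without any single library, but the change between days was lost with voom (0.278). Its call as lower in AL (log2 fold change -0.93, SE 0.226, adjusted p = 0.0442) set 3 libraries at 0 against a mean that held the EN values, and was lost without any 1 of 18 libraries (at most 0.216, without AL MM18). Os04g0438400, a wall-term gene, was at 0 in both EN libraries of 16 DAF, against 48.8 to 309 in NE, 12.8 and 65.1 in CC and 24.9 to 57.5 in AL. That made EN at least 9.66-fold lower (fitted log2 fold change -2.71, SE 0.753, adjusted p = 0.0175), and the call was lost without either EN library (0.121 and 0.108).

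Some calls of both-term genes rested on a single library. Os06g0193200 read at most 1.04 in OVT, NE and EN at 8 DAF, against 105 in the CC library of that day. Its calls as lower in OVT, NE and EN at 8 DAF (log2 fold changes -1.19, -1.13 and -1.19) all ended without that library, at an adjusted p of 1 each and values of -0.02, 0.05 and -0.02. Os01g0788400 read 246 and 1.19 in OVT at 8 DAF and at most 14.2 in the others, and its call (log2 fold change 2.26, SE 0.699, adjusted p = 0.0407) ended without OVT MM21 (1) and in 9 further cases of a library left out.

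The inhibitor-term genes without the wall modification term included the most abundant members, led by Os03g0639400. At 4 DAF it read 3.29, 94.8 and 99.6 in OVT, against 6938 in EN, 2003, 2472 and 243 in NE and 758 and 611 in CC. OVT lay below every other library of that day (log2 fold change -5.02, SE 1.08, adjusted p = 0.00289), also without any single library. In NE of 16 DAF the values were 0, 0 and 0.0441, against 33.6, 4012 and 62.1 in NE of 8 DAF. The fall in NE of 16 DAF against NE of 4 and 8 DAF (log2 fold change -5.65, SE 1.04, adjusted p = 0.00388) kept its call without any single library. In CC of 16 DAF it read 0 and 6.42 (log2 fold change -5.75, SE 1.48, adjusted p = 0.0343), a call lost without any 1 of the 4 CC libraries of 4 and 16 DAF (0.0911 to 0.176).

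Os04g0587100 and Os08g0541800 shared this early pattern. Os04g0587100 read 0.822, 12.4 and 22.5 in OVT at 4 DAF, against 1398 in EN, 92.2, 621 and 20.2 in NE and 32.1 and 113 in CC (log2 fold change -3.55, SE 0.771, adjusted p = 0.0031, and 0.0569 without EN MM13). Os08g0541800 read 0, 33.4 and 6.42 in OVT, against 466 in EN and 36.9, 666 and 7.43 in NE. Its OVT call (log2 fold change -2.66, SE 0.815, adjusted p = 0.034) was lost without OVT MM05, OVT MM13, CC MM13 or EN MM13 (0.0795 to 0.2). In NE, Os03g0639400, Os04g0587100, Os08g0541800, Os02g0688200, Os08g0142500 and Os08g0142900 each had their highest value of 4 DAF in library MM06 and of 8 DAF in library MM21. The nutrient reservoir share of the NE libraries was 1.03%, 0.163% and 1.97% for MM05, MM06 and MM13 and 11.6%, 3% and 2.53% for MM20, MM21 and MM22, beside 1.48% in EN of 4 DAF and 55.1% in EN of 8 DAF, and the part of endosperm RNA in these values was not tested. Os02g0688200 had its highest value in the OVT library of 16 DAF (2191), ahead of 364 in NE MM06 and 196 in EN at 4 DAF.

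Os06g0711800, also an inhibitor-term gene, was present in NE and CC at 4 and 8 DAF and at or near 0 there at 16 DAF. The NE libraries of 4 DAF read 365, 164 and 71.1, those of 8 DAF 80.8, 433 and 206, and those of 16 DAF 0, 0 and 0.529. The NE libraries of 16 DAF lay below all earlier ones (log2 fold change -4.22, SE 0.639, adjusted p = 5.88e-04), and this call held without any single library. Both CC libraries of 16 DAF were at 0, against 188 and 74 at 4 DAF, at least 23.2-fold lower (fitted log2 fold change -3.69, SE 0.904, adjusted p = 0.0269), but the call was lost without CC MM05 of 4 DAF (0.226) or either CC library of 16 DAF (0.0856 and 0.0924). The CC library of 8 DAF read 314. At 8 DAF it was lower in EN, at 3.48 and 0, than in the mean of NE, OVT and CC (log2 fold change -3.07, SE 0.758, adjusted p = 0.00941), and lower in OVT, at 0 and 9.52 (log2 fold change -2.72, adjusted p = 0.0234). These were lost without the CC library (0.0714 and 0.135), without either EN library (0.091 and 0.154) in the EN case, and without OVT MM21 (0.245) or EN MM20 (0.0505) in the OVT case. Its call as higher in NE at 8 DAF (log2 fold change 2.46, adjusted p = 0.0451) was lost without any 1 of 9 libraries (at most 0.23, without NE MM21).

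Os12g0599800 followed Os06g0711800 in NE. Its NE libraries read 172, 131 and 84.9 (4 DAF), 6.78, 194 and 168 (8 DAF), then 0, 0 and 0.662 in those of 16 DAF (log2 fold change -3.39, SE 0.698, adjusted p = 0.00734, and 0.0615 without NE MM04). Another inhibitor-term gene, Os08g0108100, read 148 and 0 in OVT at 8 DAF and 0 in the other libraries of that day, and its call (log2 fold change 1.99, SE 0.575, adjusted p = 0.0285) went to 0 without OVT MM21 (adjusted p = 1). It was lost as well without EN MM20 (0.0503) or EN MM22 (0.0508). At 4 DAF Os08g0108100 was also called higher in OVT (log2 fold change 1.57, SE 0.502, limma adjusted p = 0.0436, voom 0.0376). Its OVT libraries there lay above all others of that day, with a mean of 23.9 against 0.972. Os10g0508700 read 2.76 and 35.3 in CC at 16 DAF and was at 0 in the other 16 DAF libraries, at least 5.76-fold higher in CC (fitted log2 fold change 1.27, SE 0.277, adjusted p = 0.00813), but without CC MM18 it did not reach the filter and was not tested. Against CC of 4 DAF, where it was at 0, it was at least 6.96-fold higher at an adjusted p that rounds to 0.05, a call lost without any 1 of 25 libraries (at most 0.205, without CC MM05) and not tested without CC MM18.

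**Figure D4:**
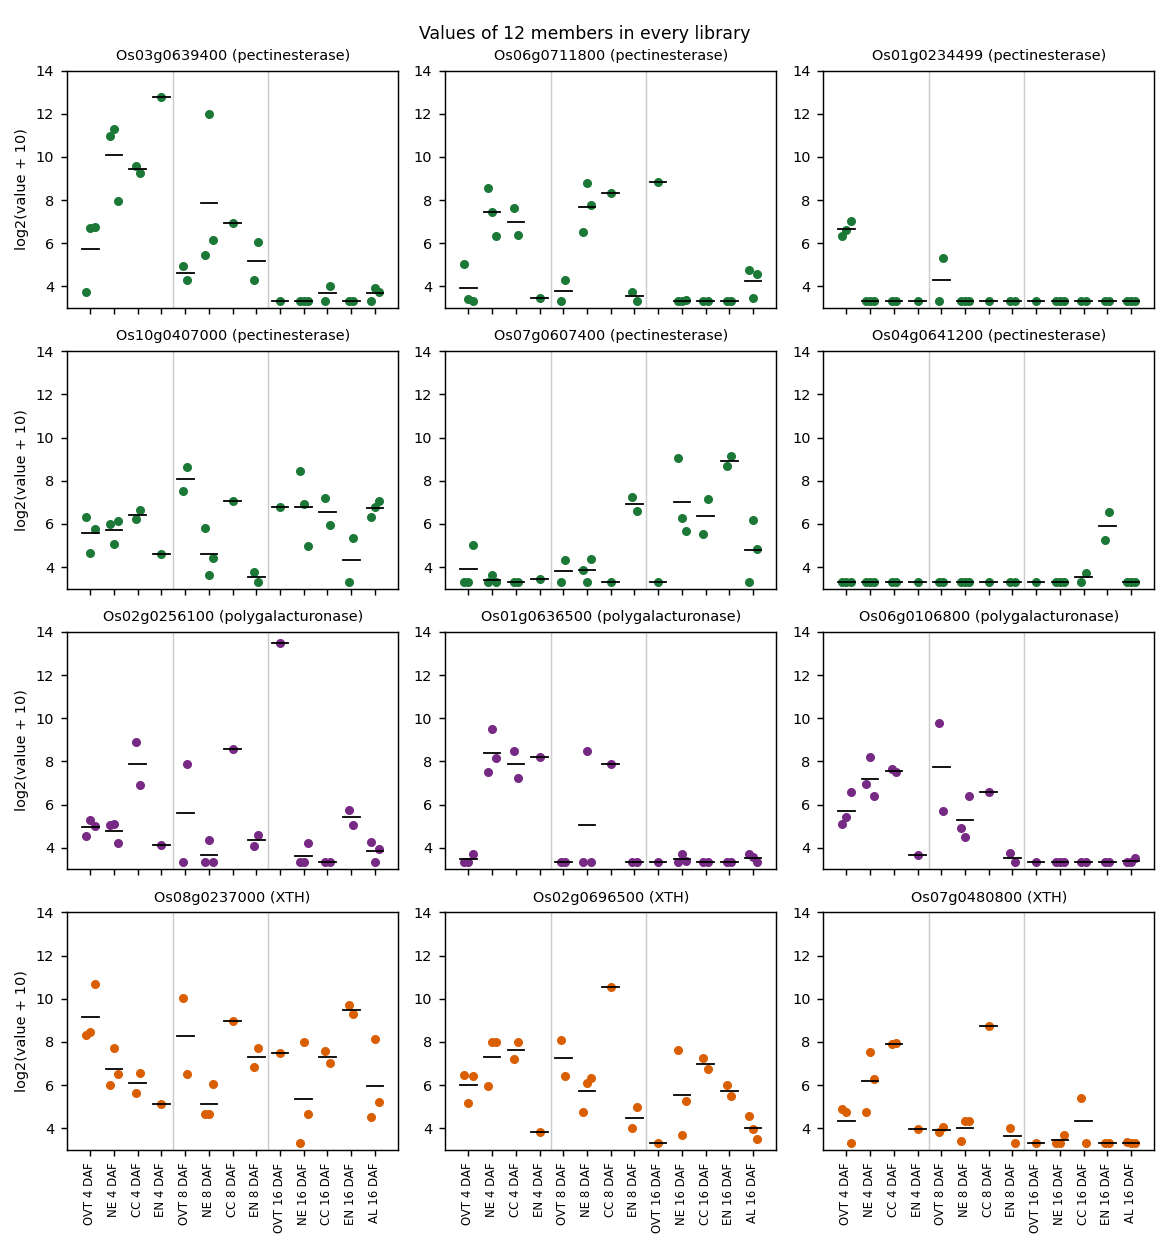
Values of 12 members in every library as log2(value + 10), by tissue and day, with points for libraries and bars for group means of the log2 values. The 3 NE libraries of 16 DAF sit at or near 0 for Os03g0639400 and Os06g0711800, and Os02g0256100 stands at 11500 in the single OVT library of 16 DAF.

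Among the polygalacturonases, the enzymes that cut demethylesterified pectin, Os01g0636500 and Os12g0554800 were nearly missing from OVT. Os01g0636500 read 0, 0 and 3.21 in OVT at 4 DAF, against 172, 721 and 276 in NE, 351 and 140 in CC and 280 in EN (log2 fold change -4.69, SE 0.82, adjusted p = 3.68e-04). Os12g0554800 read 2.47, 0 and 0 in OVT, against 104, 171 and 795 in NE, 268 and 108 in CC and 58.2 in EN (log2 fold change -3.77, SE 0.753, adjusted p = 0.00142). For both genes the OVT libraries lay below all others of that day and the call held without any single library. At 8 DAF Os12g0554800 again read 0 and 0.595 in OVT, with 628 in CC and 40.7 to 46.7 in NE (log2 fold change -3.07, SE 0.862, adjusted p = 0.0243). That call was lost without OVT MM21 (0.154), OVT MM22 (0.0689) or the CC library (0.253). Os03g0124900 was also lower in OVT at 4 DAF, at 4.11, 50.5 and 28.9 against 381, 404 and 979 in NE (log2 fold change -2.66, SE 0.767, adjusted p = 0.0251, and 0.134 without OVT MM05).

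Os01g0636500 and Os06g0106800 were at or near 0 in NE and CC of 16 DAF. In NE of 16 DAF Os01g0636500 read 0, 3.27 and 0.529, against 0, 343 and 0 at 8 DAF and the values given above at 4 DAF (log2 fold change -3.23, SE 0.791, adjusted p = 0.0212), with overlap at 0 and a call lost without NE MM04 (0.138) or MM17 (0.0569). In CC it was at 0 in both 16 DAF libraries, at least 43.5-fold below CC of 4 DAF (fitted log2 fold change -4.54, SE 1.12, adjusted p = 0.0276). The CC call was lost without CC MM05 of 4 DAF (0.213) or either 16 DAF library (0.0916 and 0.0994). Os06g0106800 read 0, 0 and 0.265 in NE of 16 DAF, against 112, 283 and 74.3 in NE of 4 DAF and 20.6, 12.5 and 73.7 in NE of 8 DAF (log2 fold change -2.89, SE 0.695, adjusted p = 0.0188), a call lost without NE MM04 (0.116) or MM17 (0.0623). Its CC libraries of 16 DAF were both at 0, against 189 and 172 in CC of 4 DAF, at least 31.9-fold lower at 16 DAF (fitted log2 fold change -4.25, SE 0.982, adjusted p = 0.0198, and 0.0621 to 0.108 without any 1 of the 4 CC libraries). Its 858 in OVT MM21 at 8 DAF, beside 42.8 in MM22, gave a call (log2 fold change 2.61, SE 0.824, adjusted p = 0.0448) that ended without MM21 (0.892). In EN of 8 DAF it read 3.48 and 0, lower than in the other tissues (log2 fold change -2.99, SE 0.824, adjusted p = 0.0178), which was lost without either EN library (0.126 and 0.207).

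**Figure D5:**
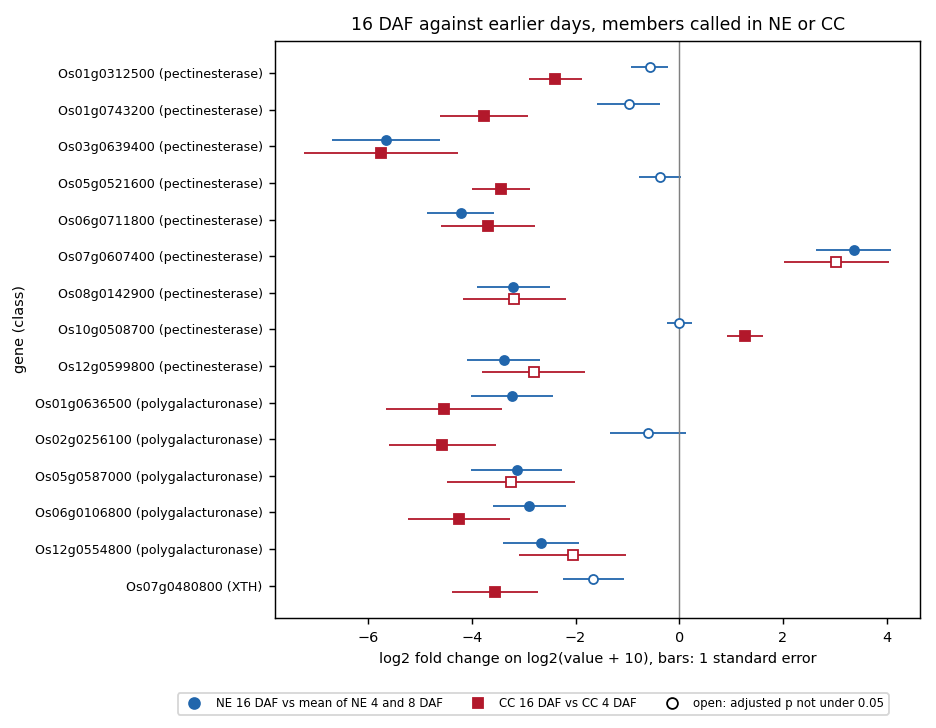
Log2 fold changes on log2(value + 10), with bars of 1 standard error, for the 15 members called in NE of 16 DAF against NE of 4 and 8 DAF (circles) or in CC of 16 DAF against CC of 4 DAF (squares), with open symbols where the adjusted p was not under 0.05. Both estimates were negative for 13 of the 15, and 4 members were called in both tissues.

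These tissue comparisons over time shared no libraries, but both held the preparation numbers MM05, MM13, MM17 and MM18, and the 4 pairs of NE and CC libraries with the same number had deviations from their group means that correlated at 0.11 to 0.21 over genes. Of the 15 members called in either, Os01g0636500, Os03g0639400, Os06g0106800 and Os06g0711800 were called lower in both. That was 50% of the members lower in NE and 44.4% of those lower in CC, beside 20.4% and 20.7% over all genes called lower. Os02g0256100 and Os07g0480800 were called in CC only, but the test of the difference between the tissues (16 against 4 DAF in CC minus the same in NE) called 0 members by limma, with 11 at an unadjusted p under 0.05. Over all 27527 genes it called 23. The polygalacturonase Os05g0587000 was called in NE, with 418, 2.38 and 189 in the libraries of 4 DAF, 103, 537 and 98.3 in those of 8 DAF, then 0, 8.56 and 10.8 in those of 16 DAF (log2 fold change -3.14, SE 0.869, adjusted p = 0.0417). That call was lost without any 1 of 10 libraries (at most 0.264, without NE MM04). At 8 DAF it was higher in NE than in the mean of OVT, CC and EN, whose highest value was 39.3 (log2 fold change 3.43, SE 0.916, adjusted p = 0.0392), a call lost without any 1 of 8 libraries (at most 0.217, without NE MM21).

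Os02g0256100 had the highest value of any member, 11500 in the OVT library of 16 DAF. The group has 1 library here, a further column named for OVT of 16 DAF (MM04) matched no sample and was not used, and the next value was 467 in CC at 4 DAF, where the other library read 109. The CC values of 4 DAF lay above all others of that day, which reached 29.5 (log2 fold change 3.28, SE 0.855, adjusted p = 0.0404), but the call was lost without any 1 of 11 libraries (at most 0.71, without CC MM05). Both CC libraries of 16 DAF were at 0, at least 51-fold lower than at 4 DAF (fitted log2 fold change -4.57, SE 1.03, adjusted p = 0.0171). That call was lost without CC MM05 of 4 DAF (0.202) or either CC library of 16 DAF (0.0625 and 0.0665). In OVT of 8 DAF it read 0 and 225. Os01g0172900 was likewise highest in the OVT library of 16 DAF, at 122, and at most 30.7 in any other library.

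The polygalacturonase Os01g0296200 had its high values in OVT of 4 DAF, at 118, 2.33 and 498, and read at most 11.9 in any library of another group. The OVT values lay above those of NE, CC and EN at 4 DAF, though the library MM06 did so narrowly, at 2.33 against 1.95 in CC (log2 fold change 3.17, SE 0.644, adjusted p = 0.00165), and the call held without any single library.

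The endosperm had its own polygalacturonase calls. Os07g0245200 read 428 and 440 in EN at 8 DAF, against 181 in CC, 18.1 to 131 in NE and 0 in both OVT libraries. Its call as higher in EN (log2 fold change 3.12, SE 1.04, adjusted p = 0.0495) was lost without any 1 of 17 libraries (at most 0.278, without EN MM22), and OVT was at least 32.6-fold lower than the mean of the others (fitted log2 fold change -4.17, SE 1.04, adjusted p = 0.012, and 0.0959 without OVT MM21). In EN of 16 DAF it was at 0 in both libraries, at least 52.9-fold lower than in EN of 8 DAF (fitted log2 fold change -5.47, SE 1.24, adjusted p = 0.0227). That call was lost without any 1 of the 4 EN libraries (0.0535 to 0.214). Os02g0130200 showed the other course, at 27.7 and 107 in EN of 16 DAF and 2.61 and 0 in EN of 8 DAF (log2 fold change 2.57, SE 0.481, adjusted p = 0.00459). This was lost without EN MM20 (0.0514) or MM22 (0.0908) of 8 DAF or EN MM18 of 16 DAF (0.107). Against AL, NE and CC of 16 DAF, which reached 14.6, it passed the test (log2 fold change 2.31, SE 0.382, adjusted p = 2.37e-04) and kept the call without any single library, but not with voom (0.215).

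Os09g0439400 and Os02g0781000 were widespread polygalacturonases that were at 0 in EN of 16 DAF. Os09g0439400 was at 0 in both EN libraries, against 58.4 to 257 in NE, 38.6 and 170 in CC and 76.8 to 95.9 in AL, at least 14.3-fold lower (fitted log2 fold change -3.45, SE 0.694, adjusted p = 0.00163), and its call held without any single library. Os02g0781000 was also at 0 in EN, against 27.6 to 116 in NE, 347 and 144 in CC and 34.5 to 150 in AL (fitted log2 fold change -3.33, SE 0.832, adjusted p = 0.00907, and 0.0781 or 0.0688 without either EN library). Both genes were detected in EN of 4 and 8 DAF, where Os09g0439400 read 36.7, 20.9 and 14.4.

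In CC of 16 DAF 3 polygalacturonases were higher than in AL, NE and EN, with unequal values in the CC libraries. Os01g0618900 read 207 and 35.3 in CC, against at most 23 elsewhere (log2 fold change 2.57, SE 0.677, adjusted p = 0.0276, and 0.412 without CC MM17). Os05g0542900 read 288 and 25.7, against at most 20 elsewhere (log2 fold change 2.92, SE 0.802, adjusted p = 0.0339), and its call was lost without CC MM17 (0.529) and in 4 further cases (0.0529 to 0.0564). Os01g0623600 read 2.21 and 51.4, against at most 1.9 elsewhere (log2 fold change 1.38, SE 0.383, adjusted p = 0.0362), and its call was lost without CC MM18 (0.909) and in 4 further cases (0.0509 to 0.0569). The first 2 of these genes were higher in the CC library MM17, and Os01g0623600 in MM18.

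Among the XTH genes, which cut and rejoin xyloglucan, Os08g0237000 was the most abundant and was above 0 in 27 of the 28 libraries. In OVT at 4 DAF it read 306, 340 and 1626, above the 24.6 to 202 of the other tissues. The difference passed the test (log2 fold change 3.16, SE 0.981, adjusted p = 0.0369), but was lost without any 1 of 6 libraries of 4 DAF (0.0502 to 0.2, highest without OVT MM13). It was also high in EN of 16 DAF, at 833 and 614, against 0 to 273 in NE, AL and CC (log2 fold change 3.31, SE 1.06, adjusted p = 0.0385), and that call was lost without any 1 of 7 libraries (at most 0.225, without EN MM17). In the only OVT library of 16 DAF it read 167.

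Cross cells of 8 DAF held the highest values of 3 other XTH genes in a single library. Os02g0696500 read 6.08 and 21.6 in EN of 8 DAF, against 1483 in CC, 263 and 75 in OVT and 16.7 to 69.8 in NE. Its call as lower in EN at 8 DAF (log2 fold change -3.34, SE 0.902, adjusted p = 0.0158) was lost without the CC library (0.198) or either EN library (0.22 and 0.0994). Os03g0854600 read 4.11 and 0 in OVT of 8 DAF, against 323 in CC (log2 fold change of OVT against the others -2.63, SE 0.744, adjusted p = 0.025), a call lost without CC MM21 (0.196), OVT MM21 (0.103), OVT MM22 (0.108) or EN MM20 (0.0508).

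Os07g0480800 followed the cross cells over time. It read 230 and 234 in CC at 4 DAF, 418 in CC at 8 DAF and 32 and 0 in CC at 16 DAF. At 4 DAF CC lay above the other tissues, whose highest value was 176 (log2 fold change 3.09, SE 0.688, adjusted p = 0.0125, with 0.113 and 0.0923 without CC MM05 and MM13). The fall in CC of 16 DAF against CC of 4 DAF (log2 fold change -3.56, SE 0.831, adjusted p = 0.0206) was lost without CC MM05 (0.0945), MM13 (0.0654) or MM18 (0.204), and with the title prefix as a covariate (0.305).

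Os06g0697000, with a mean of 67 per kb over the groups, was above 0 in 24 libraries. It read 378 in the OVT library of 16 DAF, 137, 0 and 2.69 in NE of that day and 89.5 and 119 in CC of 4 DAF. Its neighbour by identifier, Os06g0696600, read 9.86, 42.7 and 0 in OVT at 4 DAF and 0 in the other libraries of that day (log2 fold change 1.13, SE 0.352, adjusted p = 0.0377), a call lost without any 1 of 9 libraries (at most 0.302, without OVT MM06). Os03g0108300 was the only member called in NE of 4 DAF. It read 6.14, 16.6 and 43.5 in NE, against at most 5.96 in CC, OVT and EN, and at 0 in every later library (log2 fold change 1.35, SE 0.269, adjusted p = 0.0137), and the call was lost with voom (0.406), while without NE MM13 the gene did not reach the filter and was not tested. Os08g0240500 read 0 and 35.3 in CC at 16 DAF and 0 in all other libraries of that day, and its call (log2 fold change 1.09, SE 0.305, adjusted p = 0.038) was lost without any 1 of 7 libraries (at most 0.0575), and without CC MM18, its only high library, it was not tested.

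Some members with neighbouring identifiers shared their highest group. The 153 members formed 36 pairs of the same class whose locus numbers lay within 1000 of each other on a chromosome. Both genes were tested in 8 of these pairs, and 3 pairs shared their highest group: the polygalacturonases Os01g0636500 and Os01g0637500 and the inhibitor-term genes Os08g0142500 and Os08g0142900 in NE of 4 DAF, and the XTHs Os06g0696600 and Os06g0697000 in the OVT library of 16 DAF. Os01g0637500 read 26.1, 124 and 46.2 in NE at 4 DAF, each below the value of Os01g0636500 in the same library. Os11g0192400 and Os11g0194000 lie further apart than that and are not among these pairs.

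Other wall genes were counted by annotation. Among 34 genes of plant-type cell wall organization, a process term that expansins carry, 14 were tested. Of these, 5 were called in OVT of 4 DAF, 1 higher and 4 lower, beside 6.07% and 5.61% of all genes. Os05g0477600 of this list averaged 2700 in CC and 375 in the other tissues at 4 DAF (log2 fold change 3.80, SE 0.838, adjusted p = 0.0113). It was lower in OVT than in the other tissues at 4 DAF (-3.90) and at 8 DAF (-5.60), and in EN at 8 DAF (-3.35) and 16 DAF (-5.03). Os03g0377100 averaged 204 in OVT at 4 DAF and was at 0 in the other tissues of that day, as Os01g0234499 was. In EN of 16 DAF the list had 3 members higher and 3 lower, beside 5.56% and 8.55% of all genes. All 6 arabinofuranosidases, which trim arabinose side chains of wall polysaccharides, were tested, and in EN of 16 DAF 1 was higher (Os11g0131900, log2 fold change 3.98, adjusted p = 0.0231) and 2 were lower. The beta-galactosidase-term gene Os01g0952600 was lower there (-2.07, adjusted p = 0.0249), and Os08g0558900, an enzyme inhibitor gene outside the members, was lower in EN of 8 DAF (-2.84) and of 16 DAF (-3.52). Of 4 pectate lyases, which cleave pectin by elimination, 1 was tested, and limma called it in 0 of the 14 comparisons (0 at an unadjusted p under 0.05, and 1 with voom).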

How the data were processed

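The deposited table gave, for 45990 rice genes in 28 libraries, a signal: reads per gene scaled by the authors with 1 factor per library, together with gene length and annotation terms. According to the submitters' processing notes and the study's methods, reads were aligned with STAR to IRGSP-1.0, the notes also name edgeR, and replicates with a low correlation were removed before deposit, which narrows the spread the tests see. Of the value columns, 1, named for OVT of 16 DAF, matched no sample and was not used. The members and lists were chosen with earlier results of these data known.

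Depth was estimated from the smallest step of each library. Because 85.9% to 95.7% of low values per library (under 100 reads) came out as whole reads within 0.03 of a read, the planned count test was not run. The main test was limma 3.58.1 (R 4.3.3, with intensity trend and robust variances) on log2(value + 10), with 1 mean per group over all 28 libraries (15 residual degrees of freedom), for the 27527 genes whose signal exceeded 10, from 10 or more estimated reads, in any library, with Benjamini-Hochberg adjustment over these genes. Fold changes are on that scale and understate changes of low genes. A group of 1 library was assumed to vary like the others. Against a group at 0 in every library, the stated fold is a lower bound from a floor of 3 reads per library, which covers counting error only, since amplified reads carry no molecular tags. Scripts were tested on simulated data. Same-numbered preparations were not taken as pairs: of 25 such pairs of libraries, 6 had deviations correlated above 0.1 (-0.19 to 0.46), among them all 4 pairs of NE and CC.

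Genes were named by rule: per class the 5 highest per kb over the group means, up to 3 called members per comparison and direction with the largest fold change, and members whose highest group was a single library with at least 100 and 4 times the next group. The other genes named in the text were chosen after their values were seen. Alternatives were added values of 1 and 30, no filter, upper-quartile factors, the title prefix, a replicate block, each library left out, OVT of 16 DAF in the mean compared against, and, after seeing the data, voom weights and the omission of both MM17 libraries.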

Additional observations from a re-analysis of the deposited data

Results flagged for a closer look

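The difference of OVT from the other tissues changed between days for 2 of the 81 tested members, by a test of the difference between 8 and 4 DAF. Over all 27527 genes tested, 256 were called. The wall-term pectinesterase Os01g0234499 differed less from the other tissues at 8 DAF, with a log2 difference of -2.33 (SE 0.513, limma adjusted p = 0.0263) and values of 0 and 29.7 in OVT at 8 DAF, against 69.9, 87 and 119 in OVT at 4 DAF. The polygalacturonase Os11g0658800 moved the other way, with a log2 difference of 4.18 (SE 0.993, adjusted p = 0.0436) and values of 45.2 and 91.6 in OVT at 8 DAF, against 0.822, 0 and 0 in OVT at 4 DAF. Voom was not run on these differences. For Os01g0234499, at 0 in the other tissues on both days, the change of OVT alone had the same fitted value. The call of that change was lost with voom (adjusted p = 0.428) and without OVT MM21 of 8 DAF.

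The OVT library of 16 DAF entered none of the comparisons between tissues or days, and 11 members reached at least 3 reads in it. These were Os02g0256100 (value 11500), Os02g0688200 (2191), Os06g0711800 (445), Os06g0697000 (378), Os04g0438400 (222), Os08g0142900 (222), Os01g0788400 (178), Os08g0237000 (167), Os01g0172900 (122), Os10g0407000 (100) and Os06g0696600 (33.4). The inhibitor-term gene Os06g0711800 was at or near 0 in NE and CC of the same day. The library has the highest value per read, has no replicate here, lacks OsGIF1 and is marked as excluded in the study's library list, and the part of these facts in its values was not tested. No group had the 4 libraries needed to look for single outlying libraries.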

How the results depend on the processing

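Of 69 named calls, 14 held without any single library, 19 under all other settings and 11 under both, where a call counts as lost if its gene no longer reached the filter. The only change of sign was Os06g0193200 in NE at 8 DAF, which ranged from -1.17 to 0.05 over single libraries left out, with 0.05 without the CC library. Apart from single libraries left out and the replicate block, numbers of called members moved by over 1.5 times as follows, and the other counts stayed within that. With an added value of 1 they were 1 (CC of 4 DAF), 5 (OVT of 8 DAF), 1 (NE of 8 DAF), 0 (AL) and 11 (EN of 16 DAF), and with 30 they were 3 (NE of 4 DAF) and 0 (AL). Without the filter they were 5 (NE of 4 DAF) and 1 (NE of 16 DAF). With upper-quartile factors they were 5 in OVT, 5 in NE and 5 in EN of 8 DAF, 2 in AL and 2 in CC of 16 DAF. With the title prefix they were 1 (CC of 4 DAF), 0 (AL), 2 (OVT of 8 against 4 DAF) and 0 (CC of 16 against 4 DAF). With OVT in the mean compared against, NE of 16 DAF had 2. Voom gave 0 in NE and 0 in CC of 4 DAF, 2 in OVT and 4 in EN of 8 DAF, 8 in AL, 6 in NE, 12 in CC and 20 in EN of 16 DAF, 0 (OVT of 8 against 4 DAF), 25 (NE of 16 against 4 and 8 DAF), 1 (EN of 16 against 8 DAF) and 70 (among all groups). Without both MM17 libraries there were 2 (CC of 16 DAF) and 5 (NE of 16 against 4 and 8 DAF). The causes were not tested.

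Leaving out 1 library at a time gave 14 to 22 calls in OVT, 0 to 4 in NE and 2 to 7 in CC of 4 DAF, 3 to 11 in OVT, 0 to 5 in NE and 0 to 11 in EN of 8 DAF, and 0 to 3 in AL, 0 to 1 in NE, 2 to 8 in CC and 3 to 13 in EN of 16 DAF. Over time it gave 1 to 6 in OVT, 3 to 13 in NE, 1 to 11 in CC and 1 to 3 in EN, and 40 to 47 members differed among the groups.

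With the preparation number as a replicate block, 20 (OVT), 1 (NE) and 5 (CC) members were called at 4 DAF, 4 (OVT), 3 (NE) and 0 (EN) at 8 DAF, and 0 (AL), 0 (NE), 1 (CC) and 6 (EN) at 16 DAF. No paired analysis was possible because each number belongs to 1 day in the comparisons between days. The planned count test was not run, since not all values are whole reads. With another denominator (the signal without each library's leading genes), 24 of 39 class shares moved by less than 1 SD between replicates, and 15 moved by more or had no SD. In the OVT library of 16 DAF a member below a value of 33.4 had under 3 reads.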

Other observations

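Some members outside the naming rule, chosen after their values were seen, also separated young OVT from the tissues around it. Os07g0655600, a wall-term pectinesterase, was at 0 in all OVT libraries of 4 DAF, against 75.3, 117 and 54.1 in NE, 38.9 and 5.96 in CC and 27.2 in EN. It was at least 9.12-fold lower in OVT (limma adjusted p = 0.00599), and in the CC library of 8 DAF it read 152. The polygalacturonase Os01g0637500 was at 0 in the same OVT libraries, at least 8.68-fold lower than in the mean of NE, CC and EN (adjusted p = 0.00625), and was at 0 in both OVT libraries of 8 DAF. Os08g0142900, an inhibitor-term gene, read 0, 2.52 and 0.0441 in NE of 16 DAF, against 45.6 to 559 in NE of 4 DAF and 10.3 to 181 in NE of 8 DAF (log2 fold change -3.20, SE 0.706, adjusted p = 0.0115).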
